A study of Mus musculus with 17 samples.

Results

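The complement-high and complement-low cells are 12 of the 17 single skin cells of the study. They were chosen by their own measured values: for each cell the deposited values of C3, C4b and Serping1 were averaged, and the 6 cells with the highest mean were set against the 6 with the lowest, leaving 5 cells between them. The 17 cells carry identical labels. Each was a Tomato+ cell from the back skin of an adult C57BL/6 mouse of genotype Prrx1-CreERT;Tomato, injected with tamoxifen on 3 days, once daily. In such mice the promoter of Prrx1, a transcription factor gene of limb and skin mesenchyme, drives a Cre recombinase that works only with tamoxifen, so Tomato marks the cells in which that promoter was active and their descendants. Elastase and then collagenase freed the cells, the Tomato+ ones were sorted, and single cells were picked under a fluorescence microscope. No label names the animal a cell came from, no untreated or Tomato-negative cell was analysed here, and the cells count as 1 sample. The comparison below is therefore a description of these 12 cells. It has no test, and an SD given with it is the spread over 6 cells.

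Complement is a cascade of plasma proteins that coats microbes and damaged cells, draws in leukocytes and can pierce membranes. The classical arm uses the proteases C1r and C1s, of which C1s cleaves C4 and C2. The alternative arm uses factor B and factor D, and both arms meet at C3, the most abundant component of plasma complement. Serping1 encodes C1 inhibitor, which blocks C1r and C1s. Liver makes most of the plasma pool, and fibroblasts are among the cells that make these proteins locally, more so under inflammatory cytokines.

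The deposited values are logarithms, read here as log2(FPKM + 1), where FPKM is the number of fragments mapped to a transcript, scaled to its length and to the library's total. A difference of 2 on this scale is a 4-fold difference of the deposited values if the base is 2, which the sources used here do not state. The sorted values are nearly the same in every cell, as described under processing. A value thus also reflects the gene's rank within its cell, and a difference need not be a fold of measured FPKM. The constant understates differences of low genes. All values below are on this scale. The read depth of a cell is unknown, since the table gives no counts.

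The ranking mean ran from 5.41 in cell 14 to 11.38 in cell 3. The high cells are, from the lowest mean upwards, cells 5, 2, 11, 16, 13 and 3, and the low cells are 14, 8, 7, 15, 12 and 4. At the upper border cell 5 had a mean of 10.45 and lay just inside, and cell 1 with 10.21 lay just outside. At the lower border cell 4 with 7.57 lay just inside and cell 9 with 8.68 just outside. So the high set continues into the middle cells with little gap, and the low set is set off by a wider one.

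**Figure D1:**
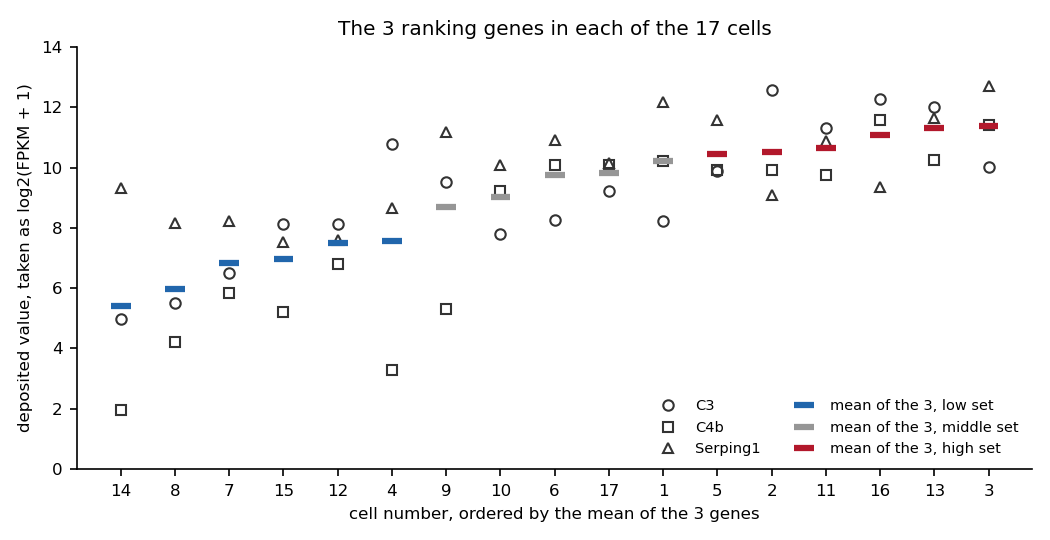
Deposited values of C3, C4b and Serping1 (open symbols) and their mean (bars) in each of the 17 cells, ordered by that mean along the horizontal axis. The means run from 5.41 to 11.38, and the C3 circle of cell 4, in the low set, stands at 10.79.

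Each of the 3 genes contributed differently to the order. C4b, a form of component C4, read 9.74, 10.09 and 11.58 in the high cells (lowest, median and highest) and 1.94, 4.72 and 6.81 in the low cells. It was the ranking gene with the widest spread over the 17 cells (SD 3.05), and the sets did not overlap in it. C3 read 9.88, 11.66 and 12.56 against 4.98, 7.31 and 10.79. Its sets overlapped through cell 4, whose C3 value of 10.79 was above those of high cells 3 and 5. Serping1 read 9.07, 11.23 and 12.72 against 7.53, 8.19 and 9.31, overlapping as well. Over the 17 cells Pearson's r was 0.61 between C3 and C4b, 0.61 between C4b and Serping1 and 0.33 between C3 and Serping1. These values define the sets and are given as a description.

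Features of the libraries were compared between the sets. Ribosomal protein genes took 7.36% to 12.8% of the back-transformed sum in the high cells (median 9.85%) and 5.83% to 8.73% in the low cells (median 7.09%). Rows at the cell's lowest value numbered 979 to 1709 in the high cells (median 1317) and 867 to 1487 in the low cells (median 1202.5), overlapping over most of their range. The pattern of values in 223 genes that stay under 2.5 everywhere placed cells 1 to 5, 6 to 14 and 15 to 17 in 3 sets, which hold 3, 2 and 1 of the high cells and 1, 4 and 1 of the low cells. What these sets are is not given in the labels. The part of any of these features in the differences below was not tested. Of the fibroblast marker list, 19 members were counted, and their mean level per cell was 7.23 to 8.54 in the high cells and 7.28 to 8.64 in the low cells. Single members parted both ways, with 11 higher and 8 lower by mean difference, high minus low. The largest were those of Fbln1 (3.19), Loxl1 (-1.83) and S100a4 (-1.43). Fbln1 was the 1 member higher by 2 or more (against 6.33% of all genes counted), and none was lower by that much. Prrx1 read 3.85, 5.63 and 7.31 in the high cells and 2.63, 5.21 and 6.68 in the low cells, and Pdgfra, a receptor that marks dermal fibroblasts, read 2.61, 5.84 and 6.87 against 1.71, 5.89 and 6.41. Both genes were at 1 or more in each of the 12 cells.

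Of all other genes, 6777 reached a value of 1 in at least 3 of the 12 cells and were counted, and 1651 did not. Their mean differences, high minus low, centred on -0.01 with quartiles at -0.90 and 0.86. In all, 429 genes were 2 or more higher in the high cells (6.33%) and 453 were 2 or more lower (6.68%). A stricter rule asks that every high cell lie above every low cell, or below, with a mean difference of at least 1. By it, 17 genes were higher (0.251%) and 11 were lower (0.162%). Of these, 12 higher genes were at 1 or more in every high cell, and 7 lower genes in every low cell. In the rest the sets parted at values under 1, as in Smarcal1 (highest high cell 0.028, lowest low cell 0.057). Leaving out 1 cell eases this rule, and each cell left out raised both counts. Without cell 4 they were 38 and 28, without cell 5 36 and 27, without cell 3 27 and 27, without cell 13 28 and 24, and without cell 16 32 and 17. The higher genes also passed 1.5 times their count without cell 11 (29) or 14 (26), and the lower genes without cell 2 (18), 7 (18), 12 (17) or 15 (23). A mean difference of 2 was thus far more common than sets that lay apart.

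**Figure D2:**
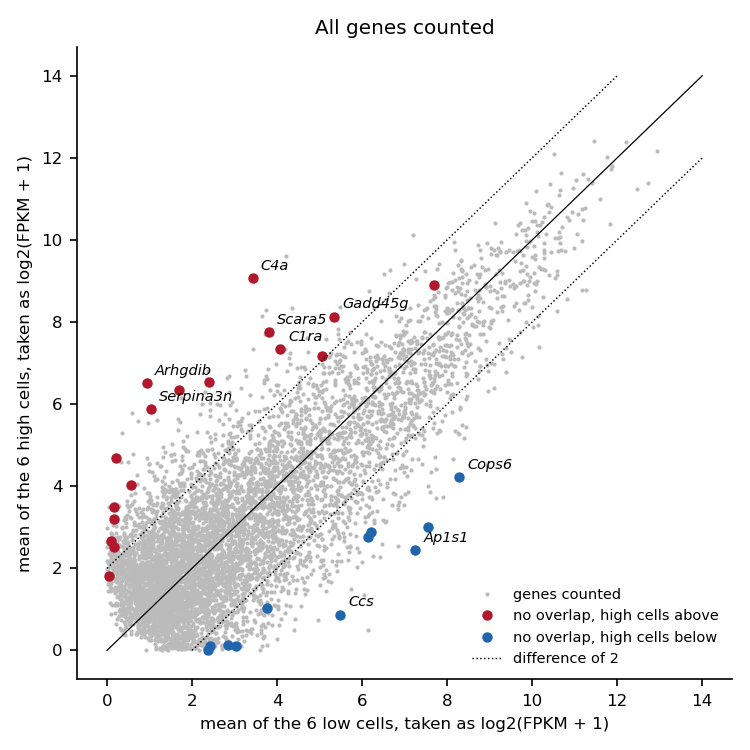
Mean deposited value of the 6 low cells (horizontal) and of the 6 high cells (vertical) for the 6777 genes counted, with dotted lines at a difference of 2. The 17 genes whose high cells all lie above the low cells are red and the 11 with the opposite order are blue, and C4a lies farthest above the diagonal among the red points.

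Other complement components were higher in the high cells as a group. Of 9 measured members of the component list that did not rank the cells, 8 were counted, all 8 had a positive mean difference, 6 were higher by 2 or more (against 6.33% of all genes), and none was lower by that much. Their median difference was 2.89, beside -0.01 over all genes counted. The mean level of these members per cell was 4.95 to 7.05 in the high cells and 1.79 to 4.47 in the low cells. The list was chosen with earlier results of these data known, and it holds genes of the same pathway as the ranking genes.

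C4a, the neighbouring paralog of C4b, read 8.01, 8.67 and 10.81 in the high cells and 0.86, 3.57 and 5.45 in the low cells, a mean of 9.08 ± 1.08 against 3.42 ± 1.80 (SD, n = 6 cells each). The sets did not overlap. C4a may not be separable from the ranking gene C4b in these values, and how reads were assigned was not examined. Of the 50-base windows of the longest C4b transcript, 35.2% occur unchanged in C4a transcripts (38.1% over its last 500 bases). Reads from such stretches can be assigned to either gene. On GRCm38 both lie on the minus strand of chromosome 17, C4b at chr17:34728380-34743882 and C4a, annotated as a processed transcript, at chr17:34809092-34823464. Without C4a the median of the remaining 7 components was 2.49, with 5 higher by 2 or more, a variant chosen after seeing the data.

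C1ra, one of the mouse genes for the protease C1r, read 6.40, 7.04 and 8.84 in the high cells and 1.99, 3.96 and 6.22 in the low cells. Its sets did not overlap either, and the mean difference was 3.28. C1ra (chr6:124512405-124523443, plus strand) also has a close copy, C1rb. Of the 50-base windows of the longest C1ra transcript, 48.0% occur in C1rb (19.1% over its last 500 bases). C1s1, for the partner protease C1s, read 5.69, 7.61 and 9.13 against 3.35, 5.91 and 8.16, so its sets overlapped over most of their range.

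Cfb and C2 encode the related proteases of the alternative and classical C3 convertases, and they lie next to each other at chr17:34856374-34862518 and chr17:34862604-34898265, both on the minus strand. Cfb read 6.00, 6.97 and 9.74 in the high cells and 0.44, 3.31 and 6.46 in the low cells, where 3 cells lay near 1 or under it. C2 was split within both sets. It reached 9.83 in cell 3 and 9.21 in cell 13, and 1.99 in cell 16, while the low cells had a median of 0.74 and a highest value of 6.54. The mean differences were 3.89 for Cfb and 3.84 for C2, and both pairs of sets overlapped.

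The lower-placed components were patchy from cell to cell. Colec12, a collectin that acts as a scavenger receptor, read 0.47, 3.96 and 5.56 against 0.21, 0.60 and 2.49. C7, a part of the membrane attack complex, read 0.28, 2.29 and 7.53 against 0.00, 0.27 and 4.91, and was near 0 in part of both sets. Cfd, for factor D, which is best known from fat cells, read 0.00, 3.47 and 9.70 against 0.00, 0.18 and 8.70. C1rl was under 1 in most cells and was not counted, with a highest value of 4.29 in the high cells and 0.12 in the low cells.

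The complement regulators and receptors did not share this order. All 6 measured members were counted, and their median difference was 0.32. None reached 2 in either direction (against 6.33% higher and 6.68% lower of all genes). Clu, the extracellular chaperone clusterin, read 1.36, 2.44 and 3.69 in the high cells and 0.27, 0.47 and 2.42 in the low cells. The membrane regulators Cd55 and Cr1l had lower means in the high cells, with differences of -0.95 and -1.07, and Cd59a, a blocker of the membrane attack complex, and Vtn, vitronectin, had differences of 0.21 and 0.43. In each of these 5 genes the sets overlapped.

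**Figure D3:**
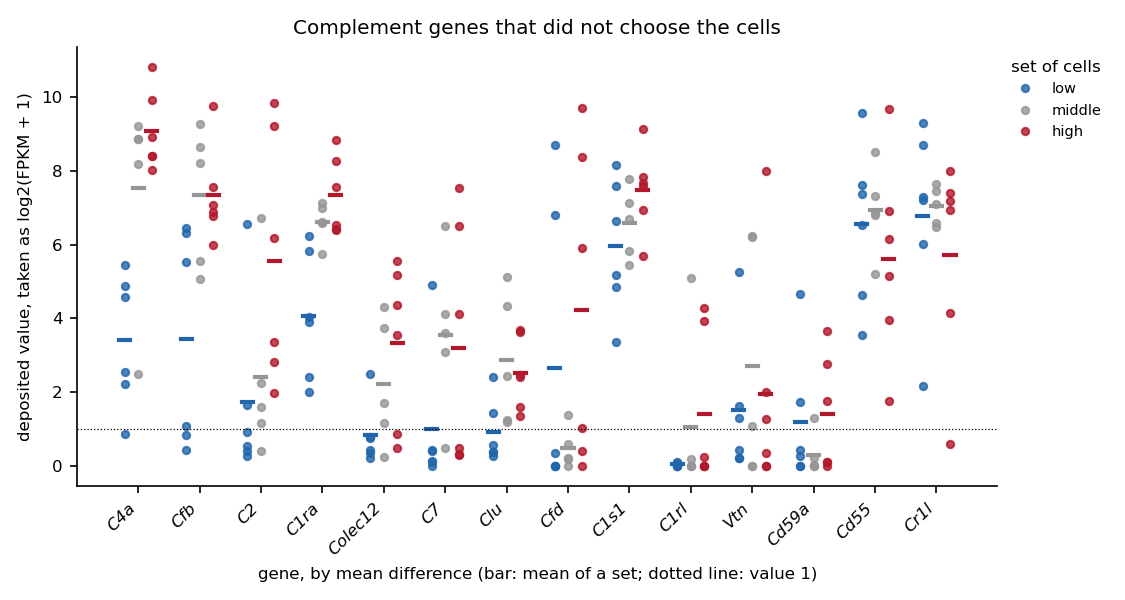
Deposited values of 14 complement genes that did not rank the cells, in the low (blue), middle (grey) and high (red) cells, with a bar at each set's mean and a dotted line at 1. C4a and C1ra are the genes here in which every red point lies above every blue one.

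Arhgdib, Serpina3n, Sav1, Setd5, Scara5, Gadd45g and Eif4a2 were the other named genes in which every high cell lay above every low cell. Arhgdib encodes an inhibitor of small GTPases best known from blood cells. It read 2.93, 7.71 and 8.88 in the high cells and 0.39, 0.80 and 1.85 in the low cells. Serpina3n, a secreted serine protease inhibitor and a classical acute-phase gene, read 2.23, 6.95 and 8.17 against 0.46, 0.86 and 1.80. In both genes the lowest high cells were cells 2 and 11, with 3.46 and 2.93 for Arhgdib and 2.98 and 2.23 for Serpina3n, while the other 4 high cells lay at 6.87 or above in each. Little of Serpina3n is shared with its neighbours: 0.893% of its windows occur in Serpina3m and 2.53% in Serpina3g.

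Scara5, a ferritin receptor found on mesenchymal cells, read 6.73, 7.72 and 8.69 in the high cells and 1.25, 4.02 and 6.55 in the low cells. Gadd45g, a stress-induced gene, read 7.38, 8.02 and 9.20 against 3.06, 6.08 and 6.98. Its highest value of all was in a middle cell (11.69), so Gadd45g did not follow the ranking mean through the whole order. Sav1, a scaffold of the Hippo pathway, differed by 4.64, Setd5, a SET-domain protein, by 4.15, and the translation factor gene Eif4a2 by 2.12. None of these genes kept separate sets under all 16 other choices of cells, ranking or scale (single cells left out not counted). C4a and Serpina3n kept them in 13, C1ra and Gadd45g in 12, Arhgdib in 11, Sav1, Scara5 and Eif4a2 in 10 and Setd5 in 9. Some of these choices, such as another constant, medians over cells or 5 against 5 cells, used the same 12 cells or part of them. Those could hardly end a separation, so the counts are no measure of stability.

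The named genes in which every high cell lay below every low cell were Ap1s1, Ccs, Rwdd1, Cops6, Ilk and Rnf181. Ap1s1 encodes a subunit of the AP-1 clathrin adaptor, and it read 0.72, 1.77 and 5.82 in the high cells against 6.48, 7.31 and 8.05 in the low cells. Ccs, the copper chaperone of superoxide dismutase, read 0.00, 0.52 and 3.02 against 4.53, 5.80 and 6.17. Cops6, a subunit of the COP9 signalosome, read 1.04, 3.83 and 7.36 against 7.43, 8.19 and 9.03, so that the sets were only just apart. Ilk, the integrin-linked kinase of focal adhesions, differed by -3.39, Rwdd1 by -4.55 and Rnf181 by -3.31. For these 6 genes the low cells were close together, with SDs of 0.51 to 0.85, and the high cells were more spread, with SDs of 1.09 to 2.77. Under the same 16 choices Rwdd1, Cops6 and Ilk kept separate sets in 11, and Ap1s1, Ccs and Rnf181 in 10. These counts are no measure of stability either.

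**Figure D4:**
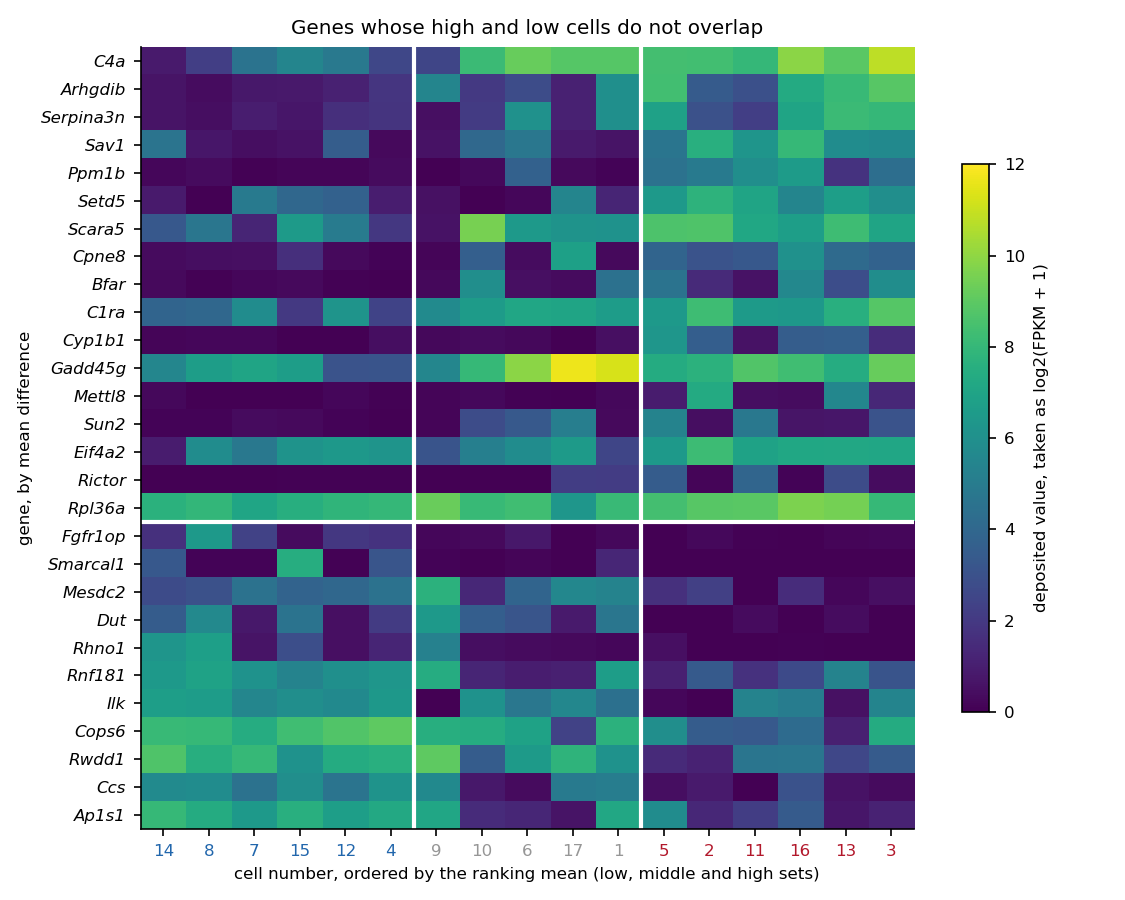
Deposited values (colour) of the 28 genes whose high and low cells do not overlap, in the 17 cells ordered by the ranking mean, with white lines between the sets and between genes higher (above) and lower (below) in the high cells. In the middle columns, which did not enter the rule, values are mixed, as in Gadd45g at 11.69.

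The genes most like the ranking mean over all 17 cells, by Pearson's r, were C4a (0.89), Arhgdib, Serpina3n and C1ra (0.78 each), and Exosc3, Lbp, Plac8 and Sepp1 (0.75 each). The 12 cells that define the sets are among the 17, so these values share the rule's choice and are a description. Lbp encodes lipopolysaccharide-binding protein, an acute-phase protein, and read 2.39, 7.10 and 8.83 in the high cells and 0.44, 0.83 and 6.05 in the low cells. Plac8, a member of the fascia and adventitia list, was high in every high cell (7.79 to 10.93) and split in the low cells, at 10.16 in cell 4 and 9.07 in cell 12 and at 2.10 or less in the other 4. Sepp1, for the selenium carrier selenoprotein P, read 6.79, 9.62 and 10.21 against 4.45, 7.07 and 8.05. Least like the mean were Tmem120a (-0.78), Ccdc53 (-0.75), Ap1s1 (-0.74) and Ccs (-0.74).

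NF-kB target and acute-phase genes also lay higher in the high cells as a list. Of 27 counted members, 25 had a positive difference, 10 were higher by 2 or more (against 6.33% of all genes), 1 was lower by 2 or more (against 6.68%), and the median difference was 0.97. Their mean level per cell was 4.53 to 5.57 in the high cells and 2.24 to 4.63 in the low cells, so a narrow overlap remained. Cebpb, a transcription factor of the acute-phase response, read 3.00, 6.33 and 7.54 against 0.84, 1.98 and 5.98. Lbp, described above, had the largest difference of the list (4.24). Nfkbiz, an atypical IkB protein that acts in the nucleus, read 6.37, 7.0 and 8.21 against 0.55, 4.36 and 6.85, and Icam1, the leukocyte adhesion molecule, read 0.55, 5.92 and 9.24 against 0.16, 0.51 and 5.98. These last genes were named after their values were seen. Nfkbia, for the inhibitor IkB alpha, differed by only 0.28, and Ptgis, prostacyclin synthase, ran the other way with 0.00, 0.60 and 6.28 in the high cells and 4.80, 5.92 and 7.55 in the low cells.

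Among chemokines and cytokines 21 of 23 measured members were counted, with a median difference of 1.29, 4 higher by 2 or more (against 6.33% of all genes) and none lower. Ccl8, a chemokine for monocytes, read 3.43, 8.92 and 10.53 in the high cells and 0.66, 2.43 and 7.88 in the low cells. Cxcl13, the B cell attractant, read 0.93, 6.55 and 9.15 against 0.64, 1.66 and 5.20, and Ccl19, which acts through Ccr7, differed by 2.53. The chemokines Cxcl1 and Ccl2, which attract neutrophils and monocytes, differed by -0.09 and 0.53, and were named after their values were seen.

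Interferon response genes did not lie to one side. Of 28 counted members the median difference was -0.15, with 1 higher by 2 or more (against 6.33% of all genes) and none lower (against 6.68%). That gene was Irf1, an interferon-induced transcription factor (5.41, 5.79 and 8.81 against 0.63, 4.46 and 7.28). Ifi27 differed by -1.98. In the MHC class I list 2 of 7 counted members were higher by 2 or more (against 6.33% of all genes). They were Tapbp (tapasin, 2.28) and Psmb8 (an immunoproteasome subunit, 2.06), and the median of the list was 0.41. B2m, the invariant light chain, read 10.56, 11.51 and 12.09 in the high cells and 10.41, 10.63 and 12.56 in the low cells.

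Of the 27 counted immediate-early genes 5 were higher by 2 or more (against 6.33% of all genes) and none lower, and the median was 0.94. Nr4a1, an orphan nuclear receptor, read 3.25, 7.19 and 8.83 in the high cells and 0.52, 3.61 and 5.88 in the low cells. Fos, a core member of this class, differed by -0.20.

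The promoters of C3, Serpina3n, Sav1 and Gadd45g are shown because they belong to a ranking gene and to the 3 named genes with separate sets that have an entry whose upstream bases overlap no annotated gene. Each sequence is the 250 bases before the RefSeq transcription start on GRCm38.p6, read 5′ to 3′ on the gene's strand, at chr17:57228137-57228386 (minus) for C3, chr12:104406458-104406707 (plus) for Serpina3n, chr12:69987003-69987252 (minus) for Sav1 and chr13:51846425-51846674 (plus) for Gadd45g. Capitals mark matches, on either strand, to the C/EBP-type motif TTGCNNAA, the STAT-type motif TTCNNNGAA or the NF-kB-type motif (GGGA, any 4 bases, then CC), the 3 motifs searched.
C3: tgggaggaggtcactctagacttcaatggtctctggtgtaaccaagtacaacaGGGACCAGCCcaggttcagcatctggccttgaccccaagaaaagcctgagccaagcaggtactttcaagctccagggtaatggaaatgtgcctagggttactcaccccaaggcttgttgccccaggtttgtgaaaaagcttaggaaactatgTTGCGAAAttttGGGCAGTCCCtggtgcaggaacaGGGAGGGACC
Serpina3n: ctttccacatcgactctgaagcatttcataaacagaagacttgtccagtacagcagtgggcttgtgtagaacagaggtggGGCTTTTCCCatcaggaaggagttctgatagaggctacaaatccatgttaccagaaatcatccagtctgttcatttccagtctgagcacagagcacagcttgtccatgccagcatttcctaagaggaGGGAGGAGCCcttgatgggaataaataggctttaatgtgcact
Sav1: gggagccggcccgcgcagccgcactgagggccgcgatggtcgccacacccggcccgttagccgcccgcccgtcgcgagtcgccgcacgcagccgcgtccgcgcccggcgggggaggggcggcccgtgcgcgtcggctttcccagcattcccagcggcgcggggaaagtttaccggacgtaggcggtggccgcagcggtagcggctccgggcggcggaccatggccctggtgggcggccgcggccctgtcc
Gadd45g: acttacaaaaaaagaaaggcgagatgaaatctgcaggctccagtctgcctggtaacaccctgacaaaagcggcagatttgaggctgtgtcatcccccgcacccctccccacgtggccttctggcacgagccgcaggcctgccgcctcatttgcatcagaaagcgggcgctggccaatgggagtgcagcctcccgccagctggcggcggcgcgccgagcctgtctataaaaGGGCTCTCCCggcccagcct
C3 holds a C/EBP-type match, TTGCGAAA, that starts 45 bases before the start site, and NF-kB-type matches at -197, -33 and -10. Serpina3n holds NF-kB-type matches at -170 and -43, Gadd45g holds one at -20, and the bases of Sav1 shown hold no match. A match is a description of letters, not a binding site. In the full RefSeq windows of 300 bases (250 before the start and 50 after it), the NF-kB-type motif occurred in 20.5% of all 27025 promoters, in 25.7% of the 5274 genes counted that have an entry and in 6 of the 15 such genes with high cells above all low cells. It occurred in 25.6% of the genes 2 or more higher in the high cells and 24.9% of those 2 or more lower, shares that lie close to that of all genes counted. The C/EBP-type motif occurred in 10.8% of all promoters and 1 of the 15, and the STAT-type motif in 8.47% and 1 of the 15.

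Matrix genes differed singly rather than as a class. The 17 counted collagens had a median difference of -0.26, and none reached 2 either way (against 6.33% higher and 6.68% lower of all genes). Col1a1 and Col1a2, the chains of type I collagen, differed by 1.13 and 0.55, and Col3a1 by -0.41. Among 24 counted collagen-processing genes 3 were lower by 2 or more (against 6.68% of all genes). They were P4ha2, a prolyl hydroxylase subunit (-2.98), Loxl3, a lysyl oxidase (-2.65), and Fkbp14, a collagen chaperone (-2.21). Of 45 counted proteoglycans and matrix glycoproteins 7 were higher and 2 lower by 2 or more (against 6.33% and 6.68% of all genes), with a median of -0.01. Efemp1, an elastic-fibre protein, read 2.33, 9.58 and 12.27 in the high cells and 0.90, 2.69 and 10.54 in the low cells. Vcan, the large proteoglycan versican, ran the other way, at 1.58, 3.14 and 7.17 against 5.29, 8.60 and 9.11. Both sets overlapped in these genes, and for Efemp1 the overlap came from cell 15 in the low set and cell 13 in the high set.

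Proteases and inhibitors had 32 counted members and a median of 0.22. Serpina3n and Mmp3 were the 2 members higher by 2 or more, near the 6.33% of all genes. Mmp3, the protease stromelysin, read 3.78, 6.11 and 11.69 in the high cells and 1.08, 2.18 and 4.36 in the low cells, overlapping through cells 11 and 4.

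Markers of skin fibroblast layers did not sort with the ranking. The 21 counted fascia and adventitia genes had a median of -0.04. Of these, 2 were higher by 2 or more (Plac8 at 5.40 and Smpd3 at 2.39), beside 6.33% of all genes. Anxa3 (-2.21) was the 1 member lower by that much, beside 6.68% of all genes. The 16 counted papillary, reticular and hair follicle genes had a median of 0.35, and Vcan and Lrig1 were lower by 2 or more (against 6.68% of all genes). The stem cell surface list had a median of -0.13 over 15 members, none past 2 (against 6.33% higher and 6.68% lower of all genes).

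Annexins, S100 proteins and galectins lay lower in the high cells. Of 18 counted members 4 were lower by 2 or more (against 6.68% of all genes), none was higher by that much, and the median was -1.07. Anxa5, the phosphatidylserine-binding annexin, read 4.98, 7.09 and 9.03 in the high cells and 8.06, 10.35 and 10.61 in the low cells. Anxa2, a membrane scaffold that forms a complex with S100a10, read 5.25, 7.18 and 8.40 against 8.38, 9.18 and 9.86, and the sets overlapped only narrowly. Anxa3 and Anxa6 differed by -2.21 and -2.04. The mean level of the list per cell was 6.40 to 8.66 against 8.10 to 8.74.

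Actin and tubulin genes also lay lower. Of 36 counted members 32 had a negative difference, 5 were lower by 2 or more (against 6.68% of all genes) and none higher, and the median was -0.85. The mean level per cell was 5.14 to 5.80 in the high cells and 5.87 to 6.92 in the low cells, so the list's means did not overlap. Tpm1, a tropomyosin, read 2.02, 3.90 and 5.43 against 4.64, 6.36 and 7.73. Tubb2a, a beta-tubulin, read 2.28, 4.27 and 7.40 against 4.83, 7.20 and 8.49, and Cnn2, a calponin, 0.00, 0.33 and 0.97 against 0.07, 4.69 and 5.36. Actb itself differed by -0.46 and the intermediate filament gene Vim by -0.92, both named after their values were seen.

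Of 41 counted nuclear-encoded respiratory chain genes 32 were below 0, and the median was -0.92. Of these, 4 were lower by 2 or more, near the 6.68% of all genes, and none was higher by that much. Atp5b, the catalytic beta subunit of ATP synthase, read 5.64, 8.86 and 10.40 in the high cells and 10.10, 10.62 and 11 in the low cells, where its SD was 0.35. Sdhb, the iron-sulfur subunit of complex II, read 0.94, 4.26 and 6.65 against 5.77, 6.36 and 7.83. The mean level of the list was 6.42 to 8.46 against 8.29 to 8.84, and the low cells were thus closer together than the high ones. The 15 counted housekeeping genes had a median of -0.09.

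**Figure D5:**
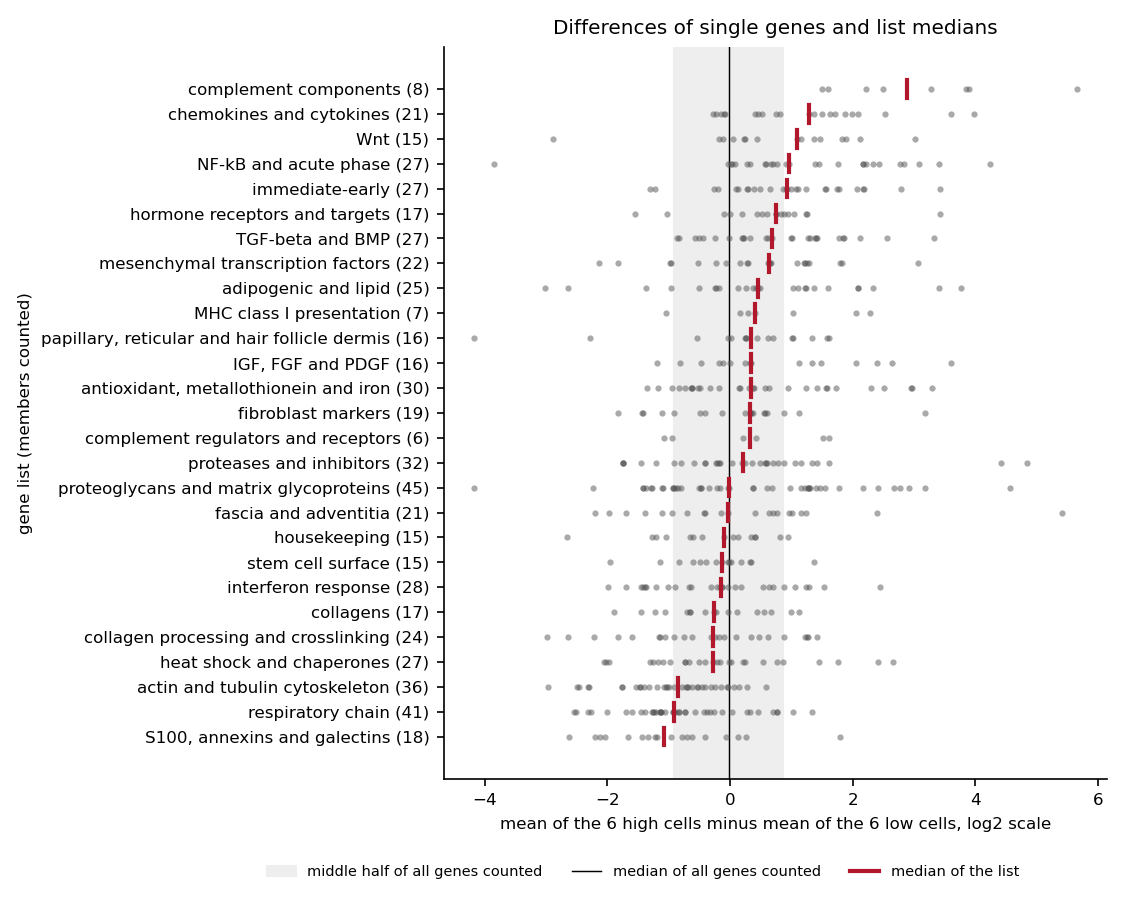
Mean difference, high minus low, of each counted gene (points) in 27 gene lists, with the list's median as a red bar and the range between the quartiles of all 6777 genes in grey. The medians run from -1.07 for S100 proteins, annexins and galectins to 2.89 for complement components, and most lie within the grey range.

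Growth factor and signalling lists had positive medians, of 0.34 for IGF, FGF and PDGF, 0.69 for TGF-beta and BMP and 1.09 for Wnt. In the IGF, FGF and PDGF list 4 of 16 counted members were higher by 2 or more (against 6.33% of all genes) and none lower. The largest difference there was that of Vegfa, the vascular growth factor, which read 5.13, 7.01 and 8.88 in the high cells and 0.48, 3.31 and 7.57 in the low cells. Among 27 counted TGF-beta and BMP genes 20 had a positive difference and 3 were higher by 2 or more, beside 6.33% of all genes: the BMP antagonist Chrdl1 (3.33), the BMP target Id1 (2.56) and the receptor Tgfbr2 (2.11). Tgfbr2 read 6.50, 7.54 and 9.40 against 3.79, 5.48 and 6.80, a narrow overlap. In the Wnt list 12 of 15 counted members had a positive difference. Dact1, an intracellular Wnt modulator, and Sfrp4, a secreted antagonist, differed by 3.02 and 2.12, and the ligand gene Wnt2 by -2.88. With 3 cells against 3 of cells 6 to 14, Sfrp4 and Wnt2 had the opposite sign (-0.071 and 1.01). Foxp1, a forkhead factor, read 1.10, 4.51 and 8.76 against 0.85, 1.58 and 2.34, and Twist2, a dermal bHLH factor, differed by -2.14. These were the members past 2 among 22 counted mesenchymal transcription factors, beside 6.33% of all genes higher and 6.68% lower. Of 17 hormone receptors and targets Nr4a1 alone was higher by 2 or more (against 6.33% of all genes), and the median was 0.75.

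Hmox1, haem oxygenase, and Gclm, of glutathione synthesis, were among 5 of 30 counted antioxidant, metallothionein and iron genes higher by 2 or more (against 6.33% of all genes), at 3.30 and 2.97, and none was lower. Heat-shock genes and chaperones had 2 higher and 2 lower among 27, near the 6.33% and 6.68% of all genes. In the adipogenic and lipid list 5 of 25 were higher and 2 lower by 2 or more, beside the same shares of all genes as above. The fatty acid carrier Fabp4 read 3.54, 6.28 and 7.62 in the high cells and 0.00, 1.79 and 5.72 in the low cells, and Lipa, the lysosomal acid lipase, 0.00, 0.20 and 1.90 against 0.24, 4.08 and 6.30.

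Markers of other skin cells were compared as summed levels. The 3 of 9 adipocyte markers that were measured, Fabp4, Cfd and Car3, summed to 4.07 to 22.1 in the high cells and 0.84 to 11.5 in the low cells. The 6 of 12 pericyte and smooth muscle markers measured summed to 1.0 to 10.8 against 0.15 to 11.4, and the 4 of 12 endothelial markers to 2.67 to 7.96 against 0.42 to 8.15. The 2 of 15 immune markers measured, Csf1r and Cd14, summed to 0.00 to 9.15 against 0.06 to 5.60, the 2 of 12 keratinocyte markers, Krt10 and Krt79, to 0.12 to 5.22 against 0.00 to 4.00, and the 3 of 9 Schwann and melanocyte markers to 2.01 to 13.6 against 0.75 to 7.58. Alas2, the 1 of 10 red cell and muscle markers measured, read 1.38 to 4.83 against 0.62 to 3.22. No measured marker was at 0 in all 17 cells, and every sum overlapped between the sets. Other defining markers, such as Pecam1 and Cdh5 of endothelium, were not analysed here. The part of other cells in the differences above was not tested.

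Within cells 6 to 14, the largest set of cells with like low values, the 3 cells with the highest ranking mean were set against the 3 with the lowest. There the median difference was 3.30 for complement components, 1.77 for NF-kB and acute-phase genes and 1.51 for chemokines. It was -1.44 for S100 proteins, annexins and galectins, -1.05 for actin and tubulin genes and -0.64 for the respiratory chain. C4a differed by 6.16, Serpina3n by 4.81, Cebpb by 6.07 and Anxa2 by -3.13. Fascia and adventitia genes, with a median of -0.04 between the full sets, had 1.43 here. Of these 6 cells 5 belong to the sets above, so the values are not independent of them.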

How the data were processed

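Single-cell RNA libraries were made with a 3′ end SMART-Seq v4 kit and Nextera XT, per the labels' protocols. TopHat2, Cufflinks and the build GRCm38 are named in the submitters' processing notes, with no version given. The authors deposited 1 table of 8446 rows and 17 cells, whose values are read here as log2(FPKM + 1). Neither base nor constant is given in the sources used here. At the same rank the sorted values of the 17 cells differ by at most 0.0712 (0.0165 where all are at 1 or more). This is close to the form that quantile normalization leaves, so the deposited values cannot show differences in total RNA.

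Where a symbol had several rows, the row with the highest mean was kept, and genes at 1 or more in at least 3 of the 12 cells were counted. Means were subtracted with no test, since the sets were selected on measured values. Named were the complement genes (1 of the regulators is not reported here), the 12 genes each way with the largest difference among those that do not overlap, the 8 most and 4 least correlated genes (both reaching 5 in 3 cells, without ribosomal protein, mitochondrial, Gm and Rik genes), and the 3 largest differences of each list. By overlap only 9 genes higher and 6 lower met the rule. The sets, lists and named genes were chosen with earlier results of these data known. Positions are from GENCODE M21. Code ran in Python 3.11.15 with pandas 2.3.3 and scipy 1.17.1. It was tested on shuffled real values with planted differences far larger than those reported, which does not cover differences near the rules' limits.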

Additional observations from a re-analysis of the deposited data

How the results depend on the processing

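The alternatives share most cells with the sets as reported, so a kept direction is no sign of stability. The reported counts are 429 genes 2 or more higher, 453 lower, and 17 and 11 without overlap. With 5 against 5 cells, 59 and 53 genes did not overlap; with 8 against 8 the counts were 257, 298, 1 and 0. With 3 against 3 within the largest low-value set they were 677, 715, 297 and 339, fewer cells making both rules easier to meet. Genes without overlap were 7 lower when C3 was left out, 11 higher when C4b was left out, 7 lower with genes of equal SD, 11 higher and 18 lower when ranked on linear values, 7 lower with detection in 6 cells, and 21 lower with the low-value sets' means subtracted. Medians over cells gave 661 and 880 genes past 2, and a constant of 0.1 gave 865 and 931. In an alternative added after seeing the data, cell 9 in place of cell 4 gave 28 and 20 without overlap. Leaving out each cell in turn gave 447 to 504 higher and 467 to 545 lower, with 19 to 38 and 14 to 28 without overlap, the highest both without cell 4. Cp (-0.16), Sfrp4 (-0.071) and Wnt2 (1.01) reversed within the largest low-value set. Of 783 list medians 25 moved beyond the spread. No median of 1 or more in size changed sign, but smaller ones did: proteoglycans kept their sign in 6 of 28 alternatives and fascia genes in 9. The cause was not tested. No paired analysis was possible because the cells form 1 group. The unknown depth limits statements on genes near 0.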
